A study of Homo sapiens with 9 samples.

Results

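HK2 (NCBI gene 3099), PFKFB3 (5209), PFKFB4 (5210), LDHA (3939), PGK1 (5230), ENO1 (2023), ALDOA (226), SLC2A1 (6513), CA9 (768) and VEGFA (7422) are genes of glycolysis and of the hypoxia response. These 10 of the 20575 genes in the files were picked by name to set the siRNA groups beside each other and siControl replicate 1 beside the other replicates. The cells were Huh7, an established line of human hepatocellular carcinoma (HCC) cells grown in high-glucose medium with serum. They were transfected with a non-targeting siRNA pool (siControl), with a pool against LATS1 (siLATS1) or with a pool against LATS2 (siLATS2), kinases of the Hippo pathway, and RNA was collected after 48 h from 3 samples a group. Sorafenib (Srf) appears in the paper's Methods but not in the sample labels, so groups carry the name of their siRNA only. The paper's Methods call the RNA samples biological triplicates, while the labels give only replicate numbers and no culture, so p-values measure the spread between these samples. All samples are of 1 cell line and each siRNA pool is 1 reagent.

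Glycolysis turns glucose into pyruvate, which LDHA reduces to lactate when oxygen is short. Cells sense oxygen through hypoxia-inducible factors (HIF), whose alpha subunits are hydroxylated by EGLN enzymes in oxygen and then destroyed through VHL. When oxygen falls, HIF accumulates and raises the transcription of glucose transporters, most glycolytic enzymes, CA9 and VEGFA, so the genes serve as a common readout of oxygen supply in cultured and tumour cells. Tumour cells also run glycolysis in full oxygen.

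HIF binds short motifs upstream of such genes. In the 250 bases before each start site in RefSeq (GRCh38.p14), ACGTG and GCGTG were searched on both strands, as were their reverse complements CACGT and CACGC, with the palindrome CACGTG counted on each strand. RefSeq windows were at hand for 9 of the genes, 14 windows in all, and 8 of the 9 genes held at least 1 match. Among all 27305 genes with a window, 47.4% did, and 43.2% of all 35116 windows. HK2 had 6 matches in its richest window, LDHA 5, PGK1 3, ALDOA, ENO1 and PFKFB3 2 each, CA9 and PFKFB4 1 each and SLC2A1 0. LDHA, PGK1 and ENO1 are shown because siControl replicate 1 lay above, level with and below its fellow replicates in them, in that order. They run 5′ to 3′, each by its window with most matches, with the matched letters in capitals.
LDHA (chr11:18394313-18394562, + strand): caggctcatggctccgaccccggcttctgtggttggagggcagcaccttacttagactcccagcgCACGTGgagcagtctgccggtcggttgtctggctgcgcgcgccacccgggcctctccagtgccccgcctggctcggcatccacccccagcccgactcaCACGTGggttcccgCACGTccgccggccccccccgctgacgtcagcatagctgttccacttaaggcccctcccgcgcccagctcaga
PGK1 (chrX:78103998-78104247, + strand): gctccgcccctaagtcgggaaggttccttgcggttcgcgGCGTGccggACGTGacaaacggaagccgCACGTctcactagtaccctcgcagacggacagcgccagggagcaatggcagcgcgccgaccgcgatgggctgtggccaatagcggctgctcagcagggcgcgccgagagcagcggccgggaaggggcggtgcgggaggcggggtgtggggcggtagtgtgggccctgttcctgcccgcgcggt
ENO1 (chr1:8878687-8878936, - strand): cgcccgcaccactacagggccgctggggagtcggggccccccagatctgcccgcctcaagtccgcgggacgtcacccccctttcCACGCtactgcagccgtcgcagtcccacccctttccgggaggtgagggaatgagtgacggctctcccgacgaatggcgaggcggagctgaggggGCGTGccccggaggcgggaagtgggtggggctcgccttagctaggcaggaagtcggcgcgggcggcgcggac
A match is only a run of letters and does not show that HIF binds there.

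Values in CPM (reads of a gene relative to all reads counted in the sample) were compared after scaling by trimmed mean of M values (TMM). Depth was 23550000 to 32190000 reads a sample, rounded. Differences were fitted with limma on log2(CPM + 1) over all 9 samples, for 12901 genes that reached 1 CPM in 3 or more samples, a filter that 9 of the 10 genes passed and CA9 did not. Changes of low genes come out too small on this scale. A gene is said to pass the study's threshold when its unadjusted p in limma is under 0.05 and its log2 fold change is at least 0.58 either way. The Huh7 identity held in the markers, since all 10 hepatocyte-like genes passed the filter, with ALB (albumin) at 2962 to 6210 CPM and AFP, the fetal serum protein that HCC cells make, at 4379 to 10032. Of 12 markers of leukocytes, endothelium and fibroblasts, CD3E, VWF, CDH5 and DCN reached at most 0.186 CPM, PTPRC 1.03, COL3A1 1.97, COL1A1 2.19, PECAM1 2.72, CD68 3.47, CD14 12.1, COL1A2 22.97 and LUM 269.7. Summed levels were 2.59 to 15.0 CPM for the 4 leukocyte, 0.683 to 2.77 for the 3 endothelial and 135 to 275 for the 5 fibroblast genes, of which LUM was the largest part in every sample. Of their 7 tested genes PECAM1 fell in siLATS1 against siControl, by 0.72 on the log2 scale (adjusted p 0.42 in limma), and the others did not pass the threshold. Of all tested genes 2.33% passed it upwards and 0.589% downwards.

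The target of siLATS1 was checked first. LATS1 stood at 110.0, 55.2 and 62.9 scaled CPM in siControl replicates 1, 2 and 3, 27.1, 20.1 and 15.6 in siLATS1 and 54.7, 78.6 and 51.2 in siLATS2. Every siLATS1 sample lay below every siControl sample and below every siLATS2 sample. In limma the log2 fold change was -1.78 (SE 0.31) against siControl, with an adjusted p of 0.13, and -1.52 (SE 0.31) against siLATS2, with an adjusted p of 0.33. An exact two-sided permutation test gave 0.1 for both, the smallest p that 3 against 3 samples allow. The difference of siLATS2 from siControl was -0.26 (SE 0.31), and the samples overlapped. LATS2 was not analysed here, so the siLATS2 knockdown has no check.

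One library, siControl replicate 1, stood apart from all others, and it bears on every comparison with siControl. Of the 12901 genes tested, it held the lowest of the 9 values in 39.6% and the highest in 41.8%. The distance went with the base composition of the transcript: across 11693 genes with a MANE Select transcript, the log2 distance of this library from the mean of siControl replicates 2 and 3 had a Pearson r of -0.88 with GC content, against 0.29 with log2 transcript length (genes are not independent replicates). In 5 bins of GC content with like numbers of genes, from lowest to highest, the median distance was 0.89, 0.61, 0.14, -0.74 and -2.01 log2 units. The glycolysis genes spread over this range, since LDHA and PGK1 had 41.8% and 42.8% GC and ALDOA 60.5%. Their median was 53.3%, against 47.5% for all genes tested. A stretch of 60 coding bases of LDHA (exon 2) and of ALDOA (exon 2), chosen in each for a GC content nearest to its whole transcript, shows the contrast on GRCh37, with G and C in capitals.
LDHA (chr11:18418390-18418449, + strand): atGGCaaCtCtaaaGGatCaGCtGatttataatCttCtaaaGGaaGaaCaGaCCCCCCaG
ALDOA (chr16:30078221-30078280, + strand): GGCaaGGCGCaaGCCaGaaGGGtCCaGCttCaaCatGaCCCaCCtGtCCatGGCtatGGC
The LDHA stretch has 25 G or C bases of 60 (41.7%) and the ALDOA stretch 36 of 60.

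**Figure D1:**
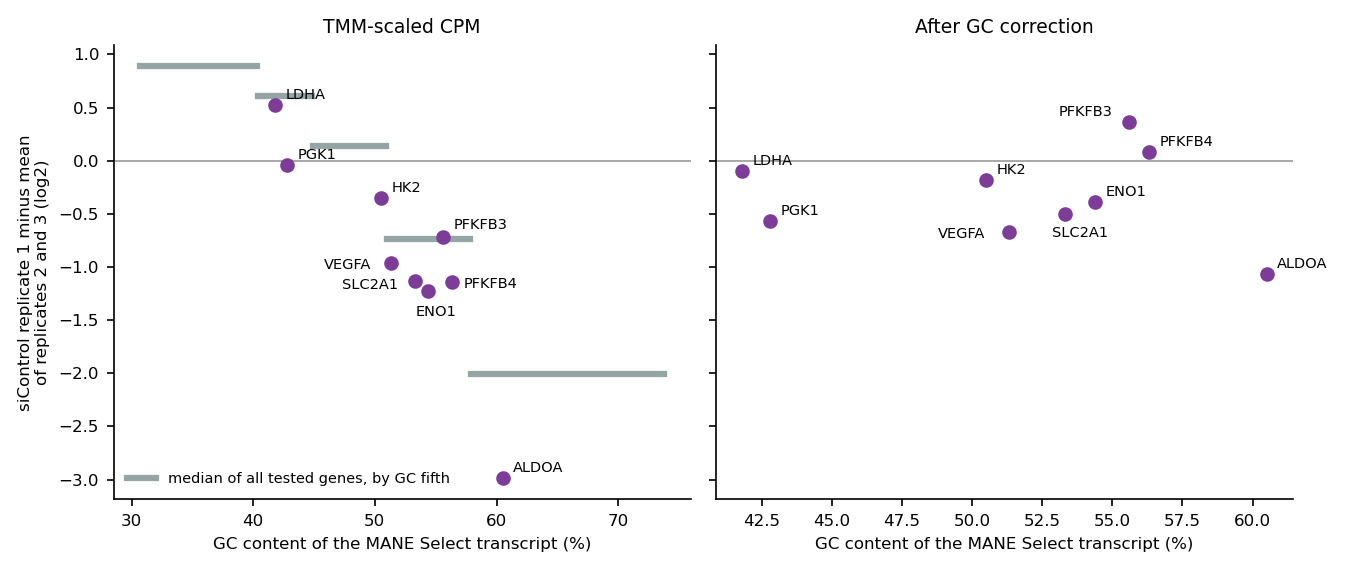
Distance of siControl replicate 1 from the mean of siControl replicates 2 and 3 (log2, y axis) against transcript GC content (%, x axis) for the 9 genes tested, before (left) and after (right) a GC correction of every sample. Grey bars give the median of all tested genes in each of 5 bins of GC content; ALDOA lay at -2.99 before and -1.07 after, and LDHA moved from 0.52 to -0.10.

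Without correction, 8 of the 9 genes were lower in siControl replicate 1 than the mean of replicates 2 and 3, and LDHA alone was higher. In 6 of them, PFKFB3, PFKFB4, ENO1, ALDOA, SLC2A1 and VEGFA, it was the lowest of all 9 samples, and in LDHA the highest. Over all tested genes these shares were 39.6% and 41.8%. The median distance was -0.96 log2 units, against 0.12 over all genes tested. PFKFB4, ENO1, ALDOA and SLC2A1 were lower by at least 1 log2 unit, a distance that 23.3% of all tested genes reached downwards and 6.96% upwards. By comparison, replicates 2 and 3 differed from each other by -0.15 to 0.23. Across the 9 genes the distance had an r of -0.88 with GC content, given as a description. A GC correction, in which each sample's smooth trend with GC content was subtracted, was added after seeing the data. With it 7 of the 9 genes were still below, the median was -0.39 and ALDOA, at -1.07, alone was lower by at least 1 log2 unit. VEGFA came to -0.67, SLC2A1 to -0.50, ENO1 to -0.39, HK2 to -0.18, LDHA to -0.10 and PFKFB4 to 0.08. PGK1 moved away from its fellow replicates, from -0.04 to -0.57, and PFKFB3 turned from -0.72 to 0.36. This library was chosen because it lay apart, so its distance has no test, and what set it apart was not tested.

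The genes did not all move one way in siControl replicate 1. Without correction ALDOA and LDHA went opposite ways, at -2.99 and 0.52 log2 units from the mean of replicates 2 and 3. After the GC correction both lay below, at -1.07 and -0.10. The ratio of ALDOA to LDHA in scaled CPM was 0.0472 in that library, against 0.513 and 0.575 in siControl replicates 2 and 3. In siLATS1 it was 0.213, 0.330 and 0.603 and in siLATS2 0.416, 0.255 and 0.579 in replicates 1, 2 and 3. The samples with a low ratio were those whose deviation from the 9-sample mean fell with GC content across genes, with an r of -0.88 in siControl replicate 1, -0.67 in siLATS1 replicate 1 and -0.73 in siLATS2 replicate 2. In siLATS1 replicate 2 it was -0.08, and in the other 5 samples 0.69 to 0.82. Part of each group was therefore on either side, and the ratio overlapped between all groups.

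**Figure D2:**
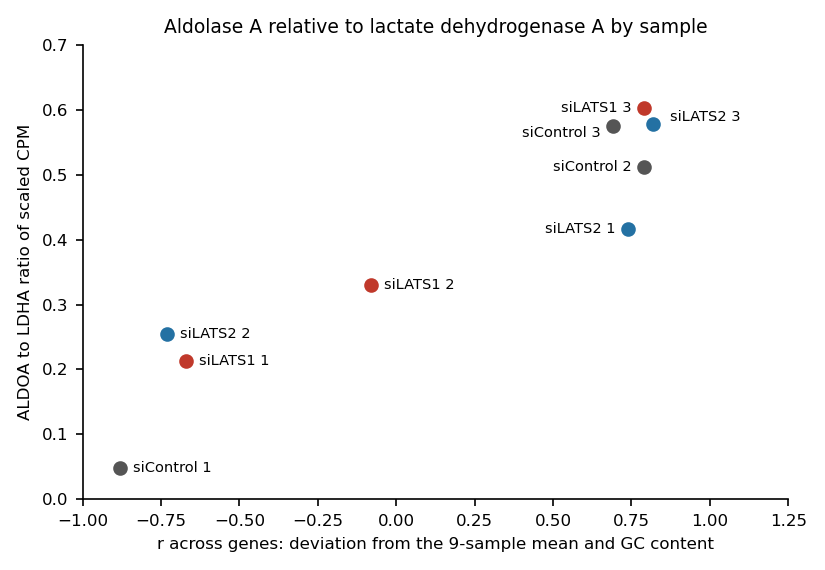
Ratio of ALDOA to LDHA in scaled CPM (y axis) for each of the 9 samples, against the r across genes between the sample's deviation from the 9-sample mean and transcript GC content (x axis), with colours and labels giving the siRNA group and replicate. The ratio was lowest, 0.0472, in siControl replicate 1 and highest, 0.603, in siLATS1 replicate 3.

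Between the siRNA groups, none of the 9 genes tested passed. In siLATS1 against siControl, 0 of 9 passed the study's threshold, which 2.33% of all tested genes passed upwards and 0.589% downwards, and 0 of 9 had an adjusted p under 0.05 in limma (0.101% of all genes). In siLATS2 against siControl the count was 0 of 9, with 0.217% of all genes higher and 0.0543% lower. In siLATS1 against siLATS2 it was 0 of 9, with 1.34% higher and 0.519% lower, and no gene of the whole table passed after adjustment in these last comparisons (0%), where the lowest adjusted p was 0.95 and 0.0868. At an unadjusted limma p under 0.05 the 9 genes likewise counted 0 in all 3 comparisons, beside 5.78%, 0.853% and 3.91% of all genes. The 3 samples of each group overlapped with those of the others in every one of the 10 genes. Groups without overlap were found in 8.48%, 3.51% and 12.4% of all tested genes in the 3 comparisons. The median log2 fold change of the 9 genes was 0.185, 0.254 and -0.150, beside 0.019, 0.0319 and -0.0347 over all genes tested. The first pair of comparisons shares the siControl samples and with them siControl replicate 1. The last has no siControl sample in its fold changes, but its SEs rest on the spread of all 9 samples, that library included.

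**Figure D3:**
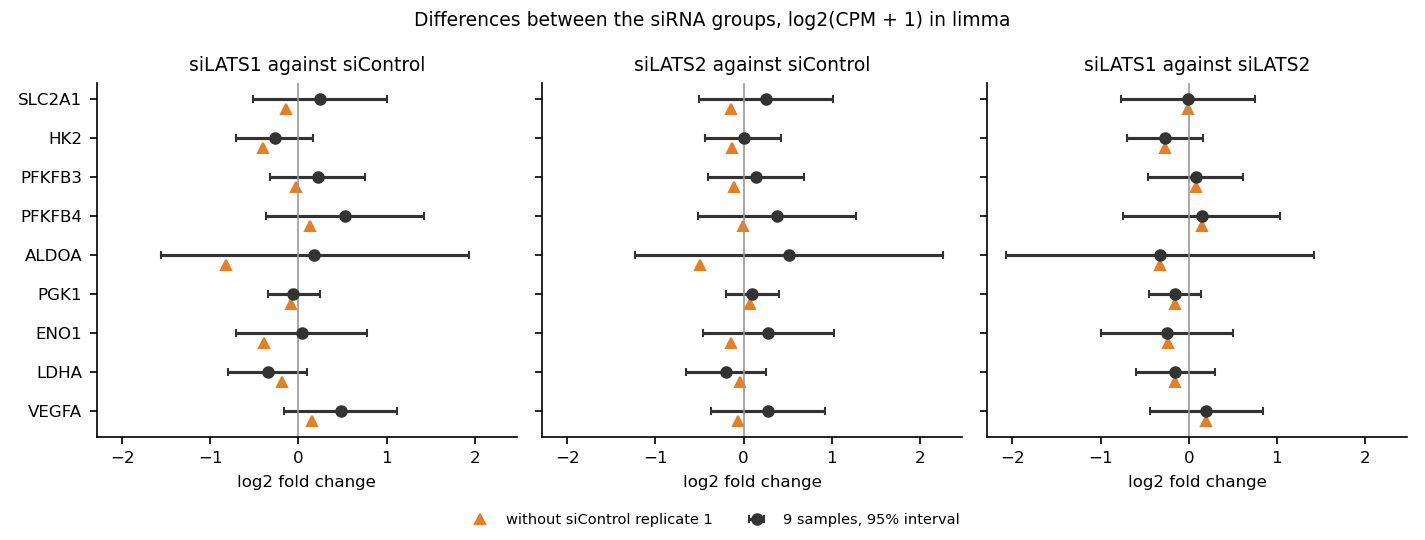
Log2 fold changes of the 9 tested genes in the 3 comparisons (x axis), as black points with 95% intervals from limma over 9 samples, and as orange triangles without siControl replicate 1. All 27 intervals include 0; without that library ALDOA moved from 0.18 to -0.82 in siLATS1 against siControl.

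Glucose entry and trapping came first. SLC2A1, the glucose transporter GLUT1, stood at 7.82, 19.6 and 17.0 scaled CPM in siControl replicates 1, 2 and 3, 13.1, 16.9 and 20.7 in siLATS1 and 16.3, 14.5 and 19.7 in siLATS2. The first siControl sample lay below the other 8, which spanned 13.1 to 20.7. The log2 fold change was 0.25 (SE 0.33) in siLATS1 and 0.25 (SE 0.33) in siLATS2 against siControl, and both were -0.14 without siControl replicate 1, so the sign changed with that library. HK2, the hexokinase that phosphorylates glucose, stood at 104, 139.9 and 126 scaled CPM in siControl replicates 1, 2 and 3, 89.5, 126 and 91.4 in siLATS1 and 105, 136 and 127 in siLATS2. A sample at or above 125.7 CPM and a sample at or below 105 CPM occurred in each group. Its fold change was -0.27 (SE 0.19, 95% interval -0.71 to 0.16) in siLATS1. In siLATS2 it was 0.00 after rounding (SE 0.19).

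PFKFB3 and PFKFB4 make and break down the sugar bisphosphate that switches on phosphofructokinase, and PFKFB3 mainly makes it. PFKFB3 stood at 54.5, 90.4 and 89.8 scaled CPM in siControl replicates 1, 2 and 3, 77.6, 80.9 and 112 in siLATS1 and 87.9, 74.6 and 90.6 in siLATS2. Apart from siControl replicate 1 the samples ran from 74.6 to 112. The fold change was 0.22 (SE 0.24) in siLATS1 and 0.14 (SE 0.24) in siLATS2, and it was -0.03 and -0.11 without siControl replicate 1. PFKFB4 was far lower, at 2.55, 6.43 and 7.23 scaled CPM in siControl replicates 1, 2 and 3, 5.78, 5.75 and 13.1 in siLATS1 and 7.89, 5.69 and 7.03 in siLATS2. The high siLATS1 value came from replicate 3 alone, and the other siLATS1 samples lay under siControl replicates 2 and 3. The fold change was 0.53 (SE 0.39, 95% interval -0.37 to 1.42) in siLATS1 and 0.38 (SE 0.39) in siLATS2, and 0.13 and -0.01 without siControl replicate 1.

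ALDOA, the aldolase that forms triose phosphates, varied most. It stood at 141, 1112 and 1137 scaled CPM in siControl replicates 1, 2 and 3, 390.3, 675 and 995 in siLATS1 and 827, 621 and 1009.9 in siLATS2. The siControl mean was 797 ± 568 CPM (SD, n = 3), against 687 ± 302 in siLATS1 and 819 ± 195 in siLATS2. With this spread the log2 fold change was 0.18 (SE 0.76, 95% interval -1.56 to 1.93) in siLATS1 and 0.51 (SE 0.76, -1.23 to 2.26) in siLATS2. Without siControl replicate 1 it was -0.82 (SE 0.34) in siLATS1, where the limma p was 0.0406 and the adjusted p 0.37. That made ALDOA the 1 gene of 9 past the study's threshold, which 2.63% of all 12874 genes then passed upwards and 3.04% downwards. In siLATS2 the value without that library was -0.50 and 0 of 9 genes passed, beside 0.233% of all genes higher and 0.303% lower. After the GC correction ALDOA was -0.14 (SE 0.27) in siLATS1, again short of the threshold.

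PGK1, which makes ATP in the payoff phase of glycolysis, was the steadiest of the enzymes before the GC correction. It stood at 154, 171 and 146 scaled CPM in siControl replicates 1, 2 and 3, 144, 169 and 141 in siLATS1 and 166, 179 and 159 in siLATS2, and siControl replicate 1 fell between its fellow replicates. The fold change was -0.06 (SE 0.13, 95% interval -0.35 to 0.24) in siLATS1 and 0.10 (SE 0.13, -0.20 to 0.40) in siLATS2. With the GC correction the SE of PGK1 was 0.16 in siLATS1 against siControl, above the 0.10 of LDHA and the 0.13 of ENO1. ENO1, the enolase that forms phosphoenolpyruvate, stood at 936, 2338 and 2078 scaled CPM in siControl replicates 1, 2 and 3, 1369, 1934 and 1851 in siLATS1 and 2084, 1843 and 2135 in siLATS2. The siControl samples alone spanned more than the other 6 together. Its fold change was 0.04 (SE 0.33) in siLATS1 and 0.28 (SE 0.33) in siLATS2, and -0.39 and -0.14 without siControl replicate 1. That -0.39 had an SE of 0.17, a limma p of 0.0437 and an adjusted p of 0.38, and was short of the study's fold. LDHA, which reduces pyruvate to lactate, stood at 2979, 2169 and 1976 scaled CPM in siControl replicates 1, 2 and 3, 1829, 2047 and 1649 in siLATS1 and 1988, 2432 and 1745 in siLATS2. Its siControl replicate 1 was the highest of all samples, the reverse of ENO1 and ALDOA. The fold change was -0.35 (SE 0.20, 95% interval -0.80 to 0.10) in siLATS1 and -0.20 (SE 0.20) in siLATS2, and -0.19 and -0.04 without that library.

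Outside glycolysis, VEGFA encodes the growth factor that hypoxic cells release to draw in blood vessels. It stood at 51.7, 104 and 98.6 scaled CPM in siControl replicates 1, 2 and 3, 101, 102 and 140.0 in siLATS1 and 101, 83.7 and 112 in siLATS2. All siLATS1 samples lay at or above 101 CPM, but siControl replicate 2 and siLATS2 replicate 3 reached the same range. The fold change was 0.48 (SE 0.28) in siLATS1 and 0.28 (SE 0.28) in siLATS2, and 0.15 and -0.06 without siControl replicate 1. CA9, the membrane carbonic anhydrase that is among the most oxygen-dependent HIF targets, was at or near 0 throughout. In all 9 samples together it drew 14 reads, 1, 2 and 0 in siControl, 3, 2 and 1 in siLATS1 and 1, 4 and 0 in siLATS2. A count of 0 allows up to 3 reads, 0.111 CPM in siControl replicate 3 and 0.108 in siLATS2 replicate 3, for counting error only. No fold change is given, because each group was close to that limit.

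Directly between the knockdowns, the 9 fold changes of siLATS1 against siLATS2 ran from -0.33 (SE 0.76) for ALDOA to 0.20 (SE 0.28) for VEGFA. HK2 was at -0.27 (SE 0.19) and ENO1 at -0.25 (SE 0.33). All 9 samples share the estimate of the spread, so siControl replicate 1 also enters these SEs. Without that library the SE was 0.31 for ALDOA, 0.16 for VEGFA, 0.16 for HK2 and 0.15 for ENO1. Other values in this paragraph are from fits to all 9 samples. In limma the adjusted p of each gene was 0.98 or 0.99 in siLATS1 against siControl, 0.95 or 1.0 in siLATS2 against siControl and 1.0 here. These p-values do not show that the groups were alike: the 95% intervals were narrow for PGK1 and wide for ALDOA. The GC correction left 0 of 9 genes past the study's threshold in siLATS1 against siControl, beside 2.30% of 11693 genes higher and 0.855% lower. The lowest limma p was then 0.0208 for LDHA, whose log2 fold change was -0.28 (SE 0.10, adjusted p 0.19).

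**Figure D4:**
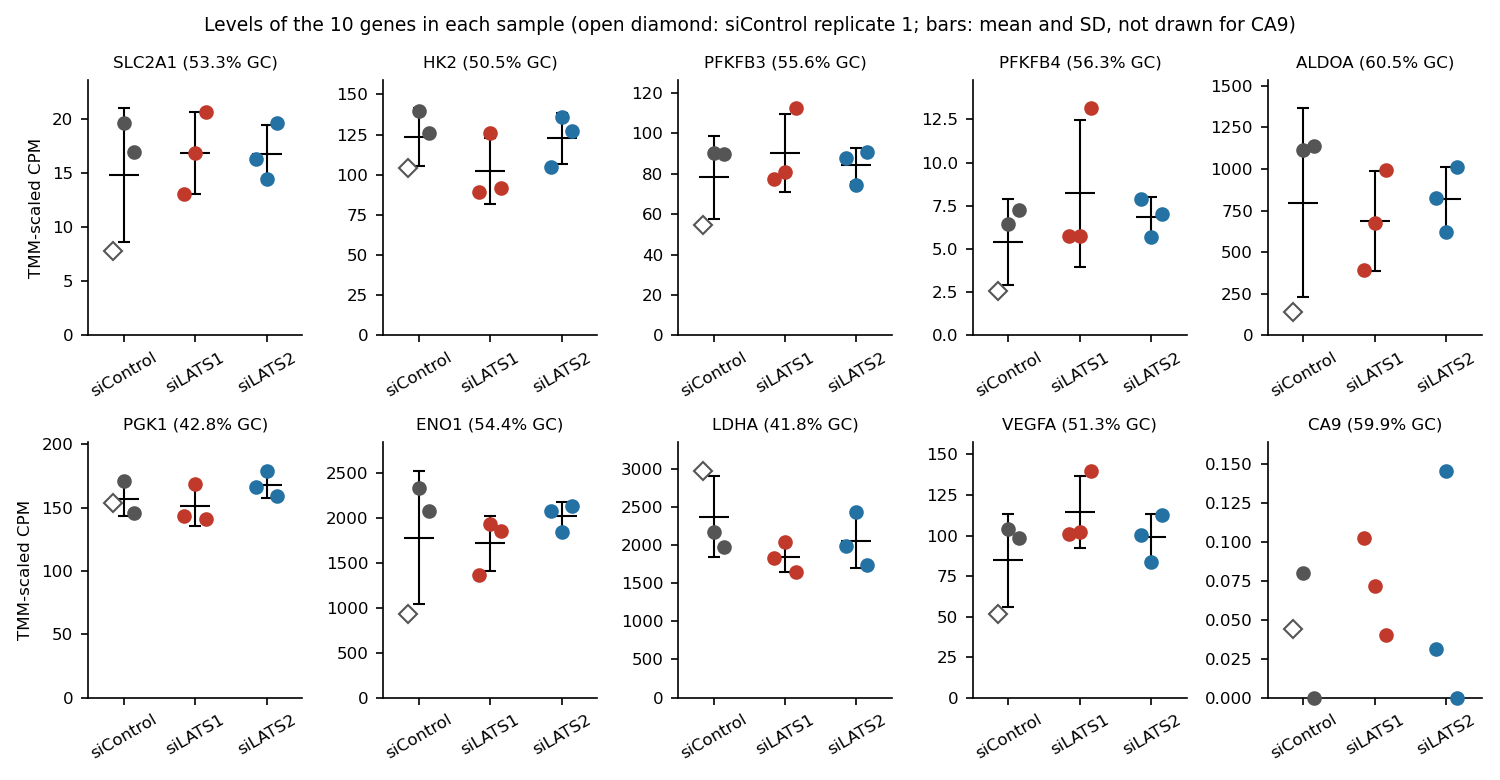
TMM-scaled CPM (y axis, from 0) of the 10 genes in the 9 samples by siRNA group (x axis), with each point a sample, the open diamond siControl replicate 1, and bars the mean and SD of the 3 samples (none for CA9, with 14 reads in all). The diamond is lowest of 9 in 6 genes and highest in LDHA, and the groups overlap in each panel.

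Per kilobase of the MANE Select transcript, ENO1 and LDHA were the most abundant, with means over all samples of 1034 and 933 scaled CPM per kb. ALDOA followed at 468, then PGK1 at 33.0, VEGFA at 27.5, HK2 at 20.6, PFKFB3 at 18.8, SLC2A1 at 4.78, PFKFB4 at 1.95 and CA9 at 0.0370. ENO1 and LDHA did not differ beyond their spread, at 1002 ± 419 and 1060 ± 237 CPM per kb in siControl (SD, n = 3) and 1135 ± 87.7 and 917 ± 155 in siLATS2. VEGFA, HK2 and PFKFB3 overlapped in siControl, at 23.5 ± 7.95, 21.9 ± 3.21 and 17.5 ± 4.59. Within each single sample VEGFA lay above PFKFB3, with 14.3 against 12.2 in siControl replicate 1. HK2 lay above VEGFA in that sample, at 18.5, but below it in every siLATS1 sample. Levels of genes with processed copies are uncertain, because the authors kept uniquely mapped reads. Of all 31-base windows of the transcript, 34.4% in LDHA, 31.7% in HK2, 19.8% in PGK1, 14.4% in ENO1 and 6.0% in ALDOA occurred elsewhere in the GRCh37 genome, and at most 0.5% in the other 5 genes. Per the paper's Methods the reads were longer than these windows, so a copied window need not keep a whole read from mapping uniquely. The shares therefore do not measure how many reads were lost.

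On GRCh37 the genes lie apart, with ENO1 at chr1:8921059-8939249 and SLC2A1 at chr1:43391024-43424564 on the minus strand, HK2 at chr2:75061254-75120486, PFKFB4 at chr3:48555117-48599448 on the minus strand and VEGFA at chr6:43737921-43754224. CA9 is at chr9:35673925-35681156, PFKFB3 at chr10:6186897-6296607, LDHA at chr11:18416107-18429972, ALDOA at chr16:30075485-30081778 and PGK1 at chrX:77166236-77384792 in the GENCODE annotation. The values count reads over exons.

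Of 22 further glycolysis genes in the files 16 were tested. In siLATS1 against siControl 2 rose and 0 fell at the study's threshold, which 2.33% and 0.589% of all genes passed, and 0 had an adjusted p under 0.05 in limma. The list's median log2 fold change was 0.04. HKDC1, a hexokinase-like enzyme, had a log2 fold change of 1.04 (SE 0.40, adjusted p 0.74) at 0.747, 0.763 and 1.03 scaled CPM in siControl replicates 1, 2 and 3, 0.889, 3.00 and 6.14 in siLATS1 and 1.24, 1.20 and 1.51 in siLATS2. Its first siLATS1 sample lay within the siControl range. ENO2, the enolase of neurons, changed by 0.85 (SE 0.24, adjusted p 0.47) at 1.10, 1.81 and 1.99 scaled CPM in siControl replicates 1, 2 and 3, 3.25, 2.89 and 5.22 in siLATS1 and 2.36, 1.60 and 2.94 in siLATS2, so all siLATS1 samples lay above all siControl samples. Groups without overlap were found in 8.48% of all tested genes in this comparison. Without siControl replicate 1, ENO2 passed at 0.68, beside 2.63% of all genes higher, and HKDC1 did not, at 0.99 (SE 0.44). In siLATS2 1 gene rose and 0 fell against siControl, beside 0.217% and 0.0543% of all genes. It was PFKM, a phosphofructokinase subunit outside the naming rule. PFKM also fell in siLATS1 against siLATS2, where 0 of the list rose, beside 0.519% of all genes lower and 1.34% higher. In siControl replicate 1 this list had 12 of its 16 genes lowest of 9 and 3 highest, beside 39.6% and 41.8% of all tested genes. The list's median distance was -0.92, against 0.12 over all genes tested. The lactate exporter SLC16A3 (64.7% GC) and the liver phosphofructokinase PFKL (63.4% GC) lay at -3.69 and -3.57 there, and at -1.30 each after the GC correction.

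Among 25 other hypoxia-response genes, 24 were tested, and 2 rose and 2 fell in siLATS1 against siControl, with a median log2 fold change of 0.06. Over all tested genes 2.33% rose and 0.589% fell at the study's threshold. NDRG1, a stress-response gene and HIF target, was 71.3 ± 16.8 CPM in siControl, 153 ± 25.5 in siLATS1 and 85.0 ± 12.6 in siLATS2 (SD, n = 3). The siLATS1 samples at 145, 132 and 181 CPM all lay above the highest of the other samples, 96.1. Groups without overlap were found in 8.48% of all tested genes in siLATS1 against siControl and 12.4% in siLATS1 against siLATS2. The log2 fold change of NDRG1 was 1.11 (SE 0.22, adjusted p 0.18 in limma) and 0.88 (adjusted p 0.089) without siControl replicate 1. After the GC correction it was 0.92 (adjusted p 0.01), and 2.22% of all genes then had an adjusted p under 0.05. ADM, the vasodilator peptide adrenomedullin, stood at 1.49, 3.82 and 5.35 scaled CPM in siControl replicates 1, 2 and 3, 5.98, 7.97 and 12.6 in siLATS1 and 4.91, 3.90 and 7.67 in siLATS2. Its fold change was 1.16 (SE 0.40, adjusted p 0.65 in limma), 0.77 without siControl replicate 1 and 0.96 (adjusted p 0.043) after the GC correction. Against this, the secreted glycoprotein gene STC2 changed by -1.01 (SE 0.30) and the collagen-crosslinking oxidase gene LOX by -0.89 (SE 0.28), with adjusted p of 0.50 and 0.57 in limma. Established hypoxia genes thus stood on both sides. In siLATS2 against siControl 0 of 24 passed, beside 0.217% of all genes higher and 0.0543% lower. In siLATS1 against siLATS2 1 rose (NDRG1) and 1 fell (LOX), beside 1.34% and 0.519% of all genes. With the GC correction 23 of the list had a value, and 3 rose (NDRG1, ADM and LOXL2) and 2 fell (LOX and STC2) against siControl as well as against siLATS2. Of all 11693 genes, 2.30% rose and 0.855% fell against siControl, and 285 passed either way against siLATS2. LOXL2 was then at 1.0 (SE 0.26, adjusted p 0.085 in limma) against siControl. In siControl replicate 1 the list split into 11 genes lowest of 9 and 10 highest, beside 39.6% and 41.8% of all tested genes. The list's median distance was -0.35, against 0.12 over all genes tested. LOXL2 and KDM4B, the farthest, lay at -1.78 and -1.62, and at -0.33 and 0.42 after the GC correction.

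The HIF system itself showed no change at the study's threshold, with 0 of 7 tested genes of 9 listed passing in either siRNA comparison with siControl. Over all tested genes the shares were 2.33% higher and 0.589% lower in siLATS1, and 0.217% and 0.0543% in siLATS2. HIF1A, the oxygen-labile subunit, stood at 1374, 692 and 814 scaled CPM in siControl replicates 1, 2 and 3, 767, 882 and 508 in siLATS1 and 721, 998 and 654 in siLATS2, and the gene has 39.4% GC. Its siControl replicate 1 value was the highest of 9, while 6 of the 9 genes tested were at their lowest; HIF1A protein was not measured, and oxygen acts mainly on the protein. After the GC correction that library was 0.06 log2 units from its fellow replicates in HIF1A, against 0.87 before. The prolyl hydroxylase gene EGLN1 had an uncorrected distance of 0.80 there, 0.57 after the correction, and EGLN2 (63.8% GC) one of -3.26, which became -0.96 after the correction. EPAS1, which encodes the other main alpha subunit, had a log2 fold change of -0.45 (SE 0.17, adjusted p 0.71 in limma) in siLATS1. It was -0.63 without siControl replicate 1 (adjusted p 0.11), past the study's threshold, and -0.56 (adjusted p 0.028) after the GC correction. Of all genes, 3.04% passed downwards without that library, and 2.22% had an adjusted p under 0.05 after the correction.

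Culture density is not given in the labels, and its part in these levels was not tested. Genes that respond to crowding or growth were read beside the members instead. Of 10 tested genes of this list, 0 rose and 1 fell in siLATS1 against siControl, beside 2.33% and 0.589% of all tested genes. It was CCN1, a target of the Hippo effector YAP, at 272, 299.7 and 316 scaled CPM in siControl replicates 1, 2 and 3, 173, 196 and 134 in siLATS1 and 309, 298 and 339 in siLATS2, with all siLATS1 samples below all others and a log2 fold change of -0.83 (SE 0.16, adjusted p 0.16 in limma). Groups without overlap were found in 8.48% of all tested genes in siLATS1 against siControl and 12.4% in siLATS1 against siLATS2. After the GC correction CCN1 was at -0.88 (adjusted p 0.017), where 2.22% of all genes had an adjusted p under 0.05. In siControl replicate 1 CCN1 was -0.17 from the other replicates. The list's median distance there was 0.08, against 0.12 over all genes tested. In that library 2 of its 10 tested genes were lowest of 9 and 5 highest, beside 39.6% and 41.8% of all tested genes. The replication gene MCM2 and the YAP target AMOTL2 were the farthest, at -1.42 and -1.01, and came to 0.01 and 0.20 after the GC correction. Hepatocyte-like genes moved in that library as well, 6 of 10 lowest and 4 highest, beside those same shares of all genes. APOA1 (63.0% GC) lay at -2.77 and KRT8 (59.3% GC) at -2.71. In siLATS1 against siControl TTR and SERPINA1 rose (log2 fold changes 0.77 and 0.72) and APOB fell (-0.70) at the study's threshold, with adjusted p of 0.80, 0.50 and 0.69 in limma. That was 2 of 10 higher and 1 lower, beside 2.33% and 0.589% of all tested genes. Without siControl replicate 1 TTR, SERPINA1 and APOB did not pass, at 0.39, 0.52 and -0.50. KRT8 alone did, at -0.68 (adjusted p 0.37), beside 2.63% of all genes higher and 3.04% lower. After the GC correction TTR (0.69), SERPINA1 (0.60) and APOB (-0.66) passed, with adjusted p of 0.13, 0.049 and 0.042 in limma. APOA1 also passed then, at 0.74 (adjusted p 0.058). Of all genes 2.30% passed upwards and 0.855% downwards after the correction.

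Likeness over the 9 samples was scored as Pearson's r with the mean z-score of the 9 genes, given as a description. Each of the 9 genes is part of that mean, which raises its r, while the genes outside the lists are not. Within the set ENO1 (0.98), ALDOA (0.96) and SLC2A1 (0.94) followed the mean closely, PFKFB3 (0.81), VEGFA (0.76) and PFKFB4 (0.73) less so, HK2 (0.54) and PGK1 (0.36) weakly, and LDHA ran against it (-0.55). The 5 genes outside the lists most like the mean were COPS7A, POLDIP2 and PSMA7 (0.991 each), PSMF1 (0.990) and SNRNP25 (0.989), which have 48.4% to 56.2% GC. In siControl replicate 1 all 5 were lower than in its fellow replicates, by -0.58 to -1.31 log2 units.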

How the data were processed

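RNA-seq of 9 Huh7 samples was read from the deposited gene values. Per the labels, total RNA was prepared with a stranded kit with ribosomal RNA removal; the paper's Methods name the same kit type but poly-A+ RNA as sequenced and another extraction kit, so the RNA fraction is uncertain. Per those Methods, single-end reads were mapped with STAR to hg19, unique hits were kept and exons of RefSeq genes were counted (whether by strand is not given in the sources used here). The authors deposited CPM, a gene's reads relative to all reads counted in its sample. Every value was within 0.01 of a whole number of reads, so depth (23550000 to 32190000, rounded) and reads were recovered. One row a sample without an identifier was left out. Symbols were matched for 20474 of 20575 identifiers (99.5%).

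CPM were scaled by TMM over all genes and limma 3.58.1 (R 4.3.3) was run on log2(CPM + 1) of all 9 samples with a mean-variance trend and Benjamini-Hochberg adjustment over 12901 genes. The fit was tested on simulated data with known changes. Those data held no trend of any library with GC content, so that test does not cover such a trend. edgeR 4.0.16 and DESeq2 1.42.0 on the recovered reads, other filters, scalings and pseudocounts, the replicate block and each sample left out were the alternatives. The GC correction, chosen after seeing the data, subtracted per sample a spline of GC content with 5 degrees of freedom fitted to each gene's deviation from its mean; 90.6% of the tested genes had a GC value. Coordinates and transcripts are GENCODE v44 lifted to GRCh37. The genes and lists were chosen with earlier results of these data known. From each list, at most 4 genes past the study's threshold in siLATS1 with the largest fold change (otherwise the 2 with the highest mean) and 2 farthest in siControl replicate 1 were named, and by r the 5 genes most like the members.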

Additional observations from a re-analysis of the deposited data

How the results depend on the processing

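Over 19 alternative settings, the 9 genes tested counted 0 past an adjusted p of 0.05 in all 3 comparisons, and 0 past the study's threshold with the exception of 1, ALDOA, in siLATS1 against siControl without siControl replicate 1. With 1 sample left out, the median log2 fold change of the 9 genes ran from -0.144 to 0.326 in siLATS1 against siControl, from -0.114 to 0.391 in siLATS2 against siControl and from -0.233 to 0.019 in siLATS1 against siLATS2, the lowest of the first pair without siControl replicate 1. LATS1 in siLATS1 against siControl stayed between -2.02 and -1.50 in every setting.

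Values of 1 gene that changed sign numbered 41 of 570. With 1 sample left out, siLATS1 against siControl gave ALDOA -0.82 to 0.68, ENO1 -0.39 to 0.24, PFKFB3 -0.03 to 0.33 and SLC2A1 -0.14 to 0.44. In siLATS2 against siControl the ranges were ALDOA -0.50 to 1.01, ENO1 -0.14 to 0.47, HK2 -0.13 to 0.06, LATS1 -0.52 to 0.02, PFKFB3 -0.11 to 0.24, PFKFB4 -0.01 to 0.60, SLC2A1 -0.14 to 0.43 and VEGFA -0.06 to 0.41. In siLATS1 against siLATS2 they were ALDOA -0.64 to 0.02, PFKFB3 -0.07 to 0.17, PFKFB4 -0.20 to 0.32 and SLC2A1 -0.15 to 0.14. For siLATS1 against siControl, ENO1 and ALDOA turned to -0.10 and -0.27 in edgeR, -0.06 and -0.23 in DESeq2 and -0.13 and -0.14 with the GC correction, with or without the replicate block, and PGK1 to 0.03 without TMM scaling. For siLATS2 against siControl, HK2 turned to 0.01 without TMM scaling, ALDOA to -0.02 in edgeR and PFKFB3 to -0.12 with the GC correction, with or without the block. For siLATS1 against siLATS2, SLC2A1 turned to 0.06 without TMM scaling, 0.00 in edgeR, 0.02 in DESeq2 and 0.04 with the GC correction, with or without the block. The cause of these changes was not tested.

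The replicate numbers were not taken to pair the samples, since not every pair was correlated: the r of what each sample departs from its group mean was 0.92, -0.49 and -0.44 for number 1, -0.20, -0.87 and 0.38 for number 2, but 0.83 to 0.86 for all 3 pairs of number 3. These r used levels without the GC correction, so each library's trend with GC content enters them. They cannot settle whether the numbers pair the samples. With the replicate number as a block, 0 of the 9 genes passed either threshold in any comparison, and the medians stayed at 0.185, 0.254 and -0.150. Over all genes, siLATS1 against siControl gave 376 past the study's threshold, 221 without siLATS1 replicate 3 and 730 without siControl replicate 1. With an adjusted p under 0.05 and the same fold it gave 13, 5 in edgeR, 166 in DESeq2, 166 with the GC correction, 229 with the block and GC correction, 0 with the block or within the 6 samples compared, 40 without siControl replicate 1, 1 without siLATS2 replicate 2 or 3 and 0 without any 1 of the other 6 samples. For siLATS2 against siControl the first count was 35, over a range of 11 to 72, and for siLATS1 against siLATS2 240, over 176 to 345. Adjusted and with the fold, siLATS2 against siControl gave 0 in each of the 19 settings, and siLATS1 against siLATS2 gave 0, 0 in edgeR, 3 without a filter, 19 without siControl replicate 1, 78 with the GC correction, 100 in DESeq2 and 107 with the block and GC correction.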
